A study of Mus musculus with 6 samples.

Results

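The genes described here make, bind and break down hyaluronan, and were followed in cultured mouse lung fibroblasts given the Wnt antagonist DKK1. They are 10 genes chosen by name, with earlier results of these data known. Listed are the hyaluronan synthases Has1, Has2 and Has3, the degrading proteins Hyal1, Hyal2 and Cemip, the receptor Cd44, and the binding proteins Tnfaip6, Vcan and Hapln3. All 10 had a row among the 45706 genes of the table, and 9 passed the filter on low counts that left 14635 genes to test. The study asked which transcripts respond to DKK1, which is secreted and blocks canonical Wnt signalling at its LRP5 and LRP6 co-receptors, in wildtype mouse lung fibroblasts. Perfused lungs were digested with collagenase and then trypsin, and the cells that grew out on plates were detached and purified by a step the labels do not describe. Control samples (3) were set beside samples (3) that received recombinant mouse DKK1, 30 ng/ml, over 24 hours. No strain, age or sex was given for the mice, and no label says that the replicates came from separate animals or cultures, so p-values measure the spread between these samples only, which may be technical. RNA of each whole culture was sequenced, and in such bulk samples fewer cells of a type and less RNA per cell cannot be told apart.

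Hyaluronan is a long sugar chain without a protein core. The synthases sit in the plasma membrane, join UDP-glucuronic acid and UDP-N-acetylglucosamine in alternation, and push the growing chain out of the cell. Outside, proteoglycans such as versican, stabilised by link proteins, attach to it, CD44 holds it to the cell surface, and hyaluronidases and CEMIP cut it. In the lung the polymer lies in the interstitium and accumulates after injury, where fibroblasts are a main source.

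Libraries held 22565917 to 28268124 counts in the control group and 23058359 to 34727102 in the DKK1 group, so that 3 counts, read here as the floor of detection, correspond to 0.0864 to 0.133 CPM (the counts-per-million scale; this floor covers counting error only). Replicate 3 of both groups stood apart from the other libraries on the first principal component (32.9% of the variance), and the second component (25.5%) separated the groups. The 8 fibroblast markers summed to 10582 to 12086 CPM in control and 9960 to 11485 CPM in DKK1 libraries. Col1a1 (5180 to 6321 CPM) and Col1a2 (2440 to 3273 CPM) made up most of that sum, Pdgfra had 468 to 767 CPM, Dcn 33.0 to 65.4 CPM and Lum only 1.77 to 2.72 CPM. Other cells were present at lower levels. The sum of 7 leukocyte and macrophage markers was 404 to 804 CPM in control and 455 to 852 CPM in DKK1 libraries, that of 6 epithelial markers 40.1 to 125 and 37.6 to 125 CPM, that of 4 endothelial markers 19.7 to 52.1 and 18.1 to 53.2 CPM, and that of 3 mesothelial markers 9.09 to 25.3 and 9.39 to 28.1 CPM, and none of the markers stayed at 3 counts or fewer in all libraries. The 4 smooth muscle and pericyte genes summed to 6126 to 6832 CPM in control and 5128 to 6054 CPM with DKK1. In the unpaired edgeR test Cd14 was called higher and Myh11 lower, and no other marker was called. In the fit with the replicate number as a block, which called 9.42% of all tested genes (4.96% higher and 4.46% lower) against 0.895% unpaired, all 4 smooth muscle and pericyte markers were lower, and of the 8 fibroblast markers 4 were lower (Col1a1, Col1a2, Pdgfrb and Thy1) and 2 higher (Pdgfra and Dcn). Of the 7 leukocyte markers, 3 were higher with the block (Cd14, Adgre1 and Itgam) and 1 lower (Csf1r). Itgam had 11.5, 12.6 and 20.6 CPM in control and 26.3, 25.0 and 43.2 CPM in DKK1 libraries (edgeR adjusted p = 7.23e-08 with the block and 0.136 without). The part of these shifts in the results below was not tested.

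Has2 and Vcan rose with DKK1, each by about the same amount. Tnfaip6 had the largest fold of the members that passed a test, and it and Cemip passed only where same-numbered samples were compared as pairs. Of the 9 members tested, 2 were called (Has2 and Vcan, both higher; edgeR quasi-likelihood test, Benjamini-Hochberg adjusted p under 0.05), beside 0.895% of all tested genes (0.697% higher and 0.198% lower). In the paired fit, which takes the replicate number as a block, 4 of 9 were called, all higher (Has2, Vcan, Tnfaip6 and Cemip), beside 9.42% of all tested genes. The labels do not say that same-numbered samples are pairs, so this fit rests on a pairing taken from these same data. No member was called lower in either fit. The median log2 fold change of the 9 members was 0.10 in both fits, and over all tested genes it was -0.0009 in the unpaired fit. The CPM values of the groups did not overlap for 4 of the 9 (Has2, Vcan, Tnfaip6 and Cd44, each higher with DKK1), as in 16.5% of all tested genes in either direction, 9.40% with DKK1 higher and 7.14% with DKK1 lower. The members were chosen with earlier results of these data known, so these shares are not those of an independent list.

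**Figure D1:**
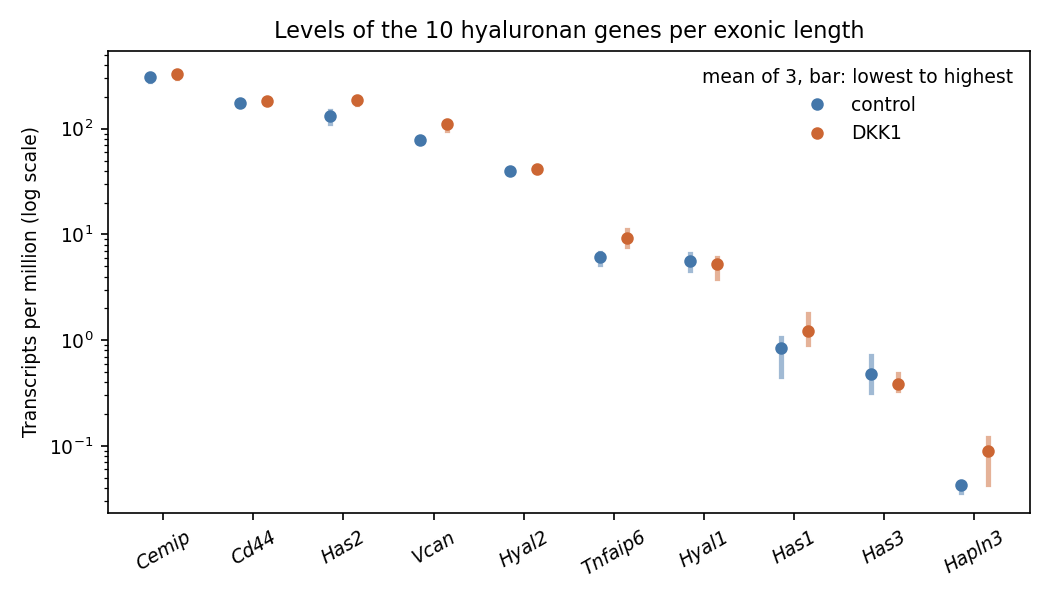
Mean level of each of the 10 genes in TPM (log scale, counts per exonic length) in 3 control and 3 DKK1 libraries; bars run from the lowest to the highest library. Cemip led in both groups, and Hapln3 lay lowest.

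Set against each other per length, in TPM (the transcripts-per-million scale: counts divided by the exonic length and scaled to a common sum), the genes spanned a wide range. In control cells the order was Cemip at 310 ± 22.8, Cd44 at 177 ± 5.72, Has2 at 131 ± 16.8, Vcan at 78.1 ± 2.37 and Hyal2 at 40.0 ± 0.669 TPM (SD, n = 3), with no overlap between neighbours. Then came Tnfaip6 at 6.13 ± 0.758 and Hyal1 at 5.59 ± 1.01 TPM, whose ranges overlapped, and Has1 at 0.845 ± 0.332 and Has3 at 0.477 ± 0.202 TPM, which also overlapped. Hapln3 was last at 0.0425 ± 0.00516 TPM. It had 1 count in each control library, under the floor of detection, so this SD reflects only the scaling of the libraries. The median of the tested genes was 16.2 TPM in control libraries. Cemip thus stood at rank 490 and Has2 at rank 1314 of the 14588 tested genes with a length, whereas Has3 stood at rank 14065. In DKK1 libraries the order of the means changed at 1 place. Has2 reached 186 ± 14.1 TPM and Cd44 183 ± 4.32 TPM, with overlapping ranges, so their order is not resolved, and Has2 moved to rank 865. The exonic length joins the exons of all annotated transcripts, which can lower genes with many transcripts. Cd44 and Vcan list 9 transcripts each and Has2 lists 1, so the order between genes depends on this scale.

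Of the synthase transcripts, Has2 was by far the most abundant. Has2 (ENSMUSG00000022367; GRCm38, chr15:56665627-56694539, minus strand) encodes the enzyme that makes long hyaluronan chains in most mesenchymal cells. It stood at 152, 133 and 174 CPM in control replicates 1, 2 and 3 and at 221, 201 and 236 CPM in DKK1 replicates 1, 2 and 3. The lowest DKK1 library lay above the highest control library, and replicate 2 was the lowest and replicate 3 the highest in both groups. The fold between same-numbered samples was 1.45, 1.51 and 1.35. The group means were 153 ± 20.5 and 219 ± 17.5 CPM (SD, n = 3 each). This is a 1.43-fold rise with a 95% interval of 1.24 to 1.65 (log2 scale 0.51, SE 0.09; edgeR adjusted p = 0.0470). With the replicate block it was 0.52 (SE 0.03; edgeR adjusted p = 1.40e-07). The unpaired call was near the threshold. It was lost with library totals in place of TMM factors (log2 fold change 0.52, edgeR adjusted p = 0.0519) and when control replicate 1, control replicate 2, or DKK1 replicate 1, 2 or 3 was left out (log2 fold changes 0.42 to 0.57, edgeR adjusted p = 0.0776 to 0.194), and kept without control replicate 3 (0.61, adjusted p = 0.0166) and without replicate 3 of both groups (0.56, adjusted p = 0.0194).

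Has1 and Has3, which encode the other synthases, were near the limit of what this depth can measure. Has1 (ENSMUSG00000003665; chr17:17843323-17855205, minus strand) had 13, 36 and 30 counts in the control libraries and 33, 77 and 29 in the DKK1 libraries. That is 1.06 ± 0.418 CPM in control and 1.54 ± 0.587 CPM with DKK1 (SD, n = 3), and the groups overlapped. The fold change was 1.46 with a 95% interval of 0.806 to 2.64 (edgeR adjusted p = 0.689), which includes both a fall and a rise larger than that of Has2. Has3 (ENSMUSG00000031910; chr8:106870242-106884566, plus strand) had 28, 20 and 13 counts in control and 24, 21 and 14 in DKK1 libraries, a fold change of 0.816 (95% interval 0.469 to 1.42; edgeR adjusted p = 0.846). The sign of the Has3 log2 fold change, -0.29, turned to 0.08 without control replicate 1, the library with most Has3 counts. Has2 made up 98.8% to 99.3% of the summed level of the synthases per length in each of the 6 libraries, and the sum was 131, 115 and 149 TPM in control and 190, 172 and 199 TPM in DKK1 libraries.

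Reads at 2 of these loci may belong to neighbours. Has2 shares 182 exonic bases with Has2os, a noncoding gene on the opposite strand, and Has3 shares 352 with Chtf8, also opposite. Whether counting used strand is not given in the sources used here. Has2os had 11 to 18 counts in each library against 3430 to 6980 for Has2, so it could add little to the Has2 value. Chtf8 had 2931 to 4485 counts against 13 to 28 for Has3, so the level of Has3 is uncertain. The expected counts of Has3 and Chtf8 were whole in every library, so no division of reads between these genes shows in them. Those of Has2 and Has2os were fractional only in control replicate 2 (3765.98 and 12.02).

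**Figure D2:**
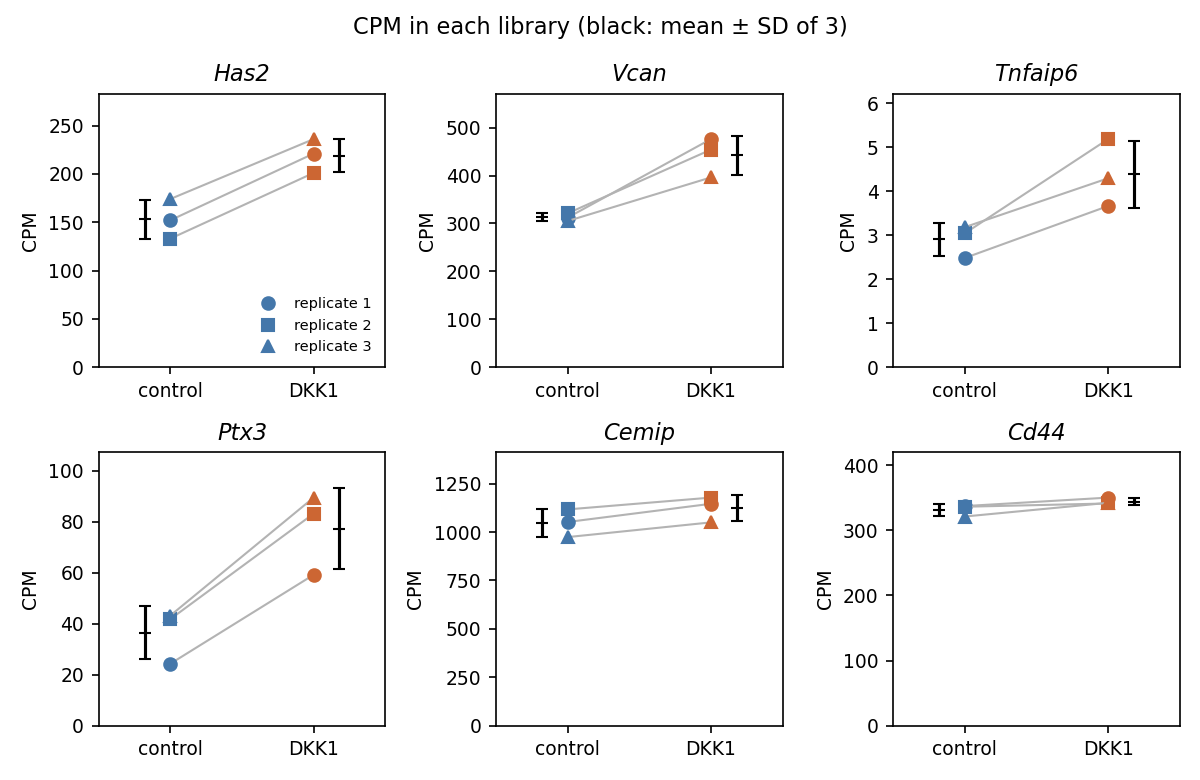
CPM of Has2, Vcan, Tnfaip6, Ptx3, Cemip and Cd44 in each library, with grey lines between samples of the same replicate number and black bars for mean ± SD of 3 samples. All lines go up; the groups overlap for Cemip and do not overlap for the other 5 genes.

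Among the breakdown genes, Cemip (ENSMUSG00000052353; chr7:83932857-84086502, minus strand) is the gene of a hyaluronan-binding protein needed for the depolymerisation of hyaluronan by skin and joint fibroblasts. Control replicates 1, 2 and 3 had 1052, 1117 and 974 CPM and DKK1 replicates 1146, 1178 and 1050 CPM. The groups overlapped, but the DKK1 library was higher in each pair, by 1.09, 1.05 and 1.08-fold. Cemip was not called in the unpaired fit (log2 fold change 0.10, SE 0.06, edgeR adjusted p = 0.666) and rose in the paired fit (0.10, SE 0.02, edgeR adjusted p = 0.00306). The paired rise of Cemip was 1.07-fold (95% interval 1.04 to 1.10). The ratio of Cemip to the summed synthases, both per length, was 2.38, 2.87 and 1.92 in control replicates 1, 2 and 3 and 1.78, 2.01 and 1.53 in the DKK1 replicates, lower with DKK1 in each pair while the groups overlapped.

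Hyal2 (ENSMUSG00000010047; chr9:107567945-107572779, plus strand) encodes the hyaluronidase anchored at the cell surface, which cuts long chains into fragments. It had 37.0, 35.9 and 36.5 CPM in control and 40.2, 37.6 and 36.4 CPM in DKK1 libraries, with overlapping groups. Its fold change was 1.04 (95% interval 0.961 to 1.13; edgeR adjusted p = 0.766 unpaired and 0.504 with the block), an interval that leaves out a change of the size seen for Has2. Hyal1 (ENSMUSG00000010051; chr9:107576927-107581710, plus strand), the lysosomal hyaluronidase, had 6.85, 4.76 and 5.92 CPM in control and 5.95, 6.33 and 4.13 CPM in DKK1 libraries. The pairs went both ways, and the fold change was 0.943 (95% interval 0.694 to 1.28; edgeR adjusted p = 0.940). Hyal1 shares 1920 exonic bases with Naa80 on the same strand, and all 6 libraries gave it fractional expected counts, so its level is uncertain and rests on how reads were divided. Per length, Hyal2 exceeded Hyal1 by 6.20 to 10.1 times over the 6 libraries.

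Cd44 (ENSMUSG00000005087; chr2:102811141-102901665, minus strand), the main surface receptor for hyaluronan on fibroblasts and leukocytes, was abundant and nearly level. It had 337, 336 and 321 CPM in control and 350, 341 and 342 CPM in DKK1 libraries. The groups did not overlap, but the difference was small: 331 ± 8.82 against 344 ± 5.24 CPM (SD, n = 3), 1.04-fold with a 95% interval of 0.981 to 1.09, and it was called in neither fit (edgeR adjusted p = 0.687 unpaired and 0.202 with the block). The table lists 9 transcripts for Cd44 under 1 gene value, so a shift among splice forms was not measured.

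Vcan (ENSMUSG00000021614; chr13:89655312-89742509, minus strand) encodes versican, a large chondroitin sulfate proteoglycan whose amino-terminal end binds hyaluronan. Control replicates 1, 2 and 3 had 312, 321 and 305 CPM, and DKK1 replicates 476, 454 and 396 CPM. Each DKK1 library exceeded each control library, and the DKK1 group was the more spread. The means were 313 ± 7.94 and 442 ± 41.2 CPM (SD, n = 3 each). The rise was 1.41-fold (95% interval 1.27 to 1.56; log2 scale 0.50, SE 0.07; edgeR adjusted p = 0.0140). The pairs gave 1.52, 1.42 and 1.30-fold, and the paired fit 0.49 (SE 0.03; edgeR adjusted p = 5.44e-07). The unpaired call was lost when control replicate 1, control replicate 2, DKK1 replicate 1 or DKK1 replicate 2 was left out (log2 fold changes 0.44 to 0.52, edgeR adjusted p = 0.0582 to 0.0729), and kept without control replicate 3 or DKK1 replicate 3 and without replicate 3 of both groups (0.55, adjusted p = 0.00416). The gene value covers 9 listed transcripts, so the versican splice forms, which differ in how many chondroitin sulfate chains they carry, were not told apart. No gene overlapping Vcan shares an exonic base with it.

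Tnfaip6 (ENSMUSG00000053475; chr2:52038009-52056686, plus strand) encodes TSG-6, an enzyme that moves heavy chains of the serum protein inter-alpha-inhibitor onto hyaluronan. It was much scarcer: 2.48, 3.04 and 3.18 CPM in control and 3.66, 5.18 and 4.29 CPM in DKK1 libraries, from 56 to 180 counts. The groups did not overlap, and the pairs gave 1.48, 1.70 and 1.35-fold. Its log2 fold change was 0.59 (SE 0.18), which was not called in the unpaired fit (edgeR unadjusted p = 0.00960, adjusted p = 0.245). It rose in the paired fit, 1.51-fold (95% interval 1.23 to 1.86; edgeR adjusted p = 0.0148). In DESeq2 with the same block it was not called (adjusted p = 0.454). Hapln3 (ENSMUSG00000030606; chr7:79115102-79131018, minus strand), a link protein that ties proteoglycans to hyaluronan, had 1, 1 and 1 counts in control and 3, 4 and 1 in DKK1 libraries. It was at or under 3 counts in 5 of the 6 libraries and was not tested.

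**Figure D3:**
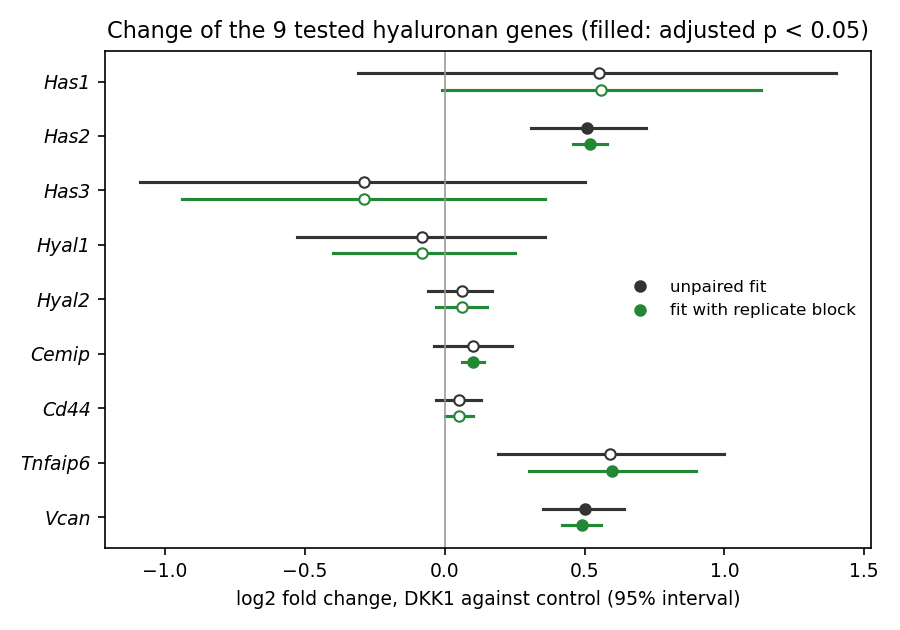
log2 fold change of the 9 tested genes, DKK1 against control, with 95% intervals, in the unpaired fit (black) and the fit with the replicate block (green); filled points have an adjusted p under 0.05. Has2 and Vcan are filled in both fits, Tnfaip6 and Cemip with the block, and the intervals of Has1 and Has3 are the widest.

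RefSeq (GRCm38.p6) windows at the start were used for 8 of the 10 genes, all but Has2 and Has3, and that of Hyal2 lies inside the gene as annotated in GENCODE. Sequence before the gene is shown for Vcan, which was called in both fits, and for Tnfaip6, whose window held the AP-1 type match; that of Cemip, called in the paired fit, held no match and is not shown. Each run ends before the first annotated base of the gene and is written 5′ to 3′ on the gene's strand. That of Vcan lies at chr13:89742513-89742762 and that of Tnfaip6 at chr2:52037863-52038008. Capitals mark the AP-1 type match.
Vcan: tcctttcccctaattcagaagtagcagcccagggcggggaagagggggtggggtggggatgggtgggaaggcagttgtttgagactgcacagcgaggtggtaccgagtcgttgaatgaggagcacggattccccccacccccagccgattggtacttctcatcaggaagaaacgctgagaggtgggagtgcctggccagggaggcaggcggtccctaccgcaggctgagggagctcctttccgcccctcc
Tnfaip6: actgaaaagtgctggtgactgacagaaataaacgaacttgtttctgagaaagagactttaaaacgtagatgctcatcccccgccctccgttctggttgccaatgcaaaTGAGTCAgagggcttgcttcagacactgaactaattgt
The patterns named next were searched on both strands of windows from 250 bases before to 50 after each RefSeq start. The AP-1 type letters TGANTCA occurred in 1 of the 8 member windows, that of Tnfaip6, as TGAGTCA beginning 142 bases before the RefSeq start, and in 7.81% of all 32851 windows. The C/EBP type letters TTNNGCAAT occurred in the Has1 window (2.18% of all windows). The NF-kB type letters GGG and TTTCC with any 2 bases between them (1.63% of all windows), the STAT type TTCCNGGAA (1.15%) and the TCF/LEF type CTTTGANC (4.02%) were in none of these 8 windows. No match of different patterns overlapped in these windows, and a match or its absence describes only these letters.

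Over the 6 libraries, the genes whose log2 CPM followed Vcan most closely, among 13020 tested genes averaging 1 CPM or more, were Glrx (a glutaredoxin), Zfp703 (a zinc finger protein), Bdkrb1 (the bradykinin B1 receptor), Ilf2 (an RNA-binding protein) and Nfkbiz (an IkB family protein of the nucleus). Their Pearson coefficients with Vcan were 0.998, 0.997, 0.994, 0.994 and 0.993. Vcan was taken as the member with the smallest p in the unpaired fit; with the block, Has2 had a smaller p than Vcan. The 6 points share 2 groups and their library totals, so that genes differing between the groups score high by construction, and no p is given. Nfkbiz stood at 87.1 ± 4.72 CPM in control and 117 ± 9.17 CPM with DKK1, and Glrx at 23.1 ± 0.521 and 29.5 ± 2.06 CPM (SD, n = 3 each).

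The rest of the pathway was followed in 45 further genes, also listed with earlier results of these data known, of which 31 were tested. In the unpaired fit 0 were called (edgeR; 7 had an unadjusted p under 0.05), and DESeq2 called 1, Ptx3. In the paired fit 11 of 31 were called, 5 higher and 6 lower, beside 9.42% of all tested genes (4.96% higher and 4.46% lower). Their median log2 fold change was -0.01 in both fits, with 15 above and 16 below 0.

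Ptx3 was the gene that changed most among them. It encodes pentraxin 3, which joins heavy chains on hyaluronan into a stable matrix and so acts beside TSG-6. It had 24.3, 41.8 and 43.2 CPM in control and 59.2, 83.2 and 89.5 CPM in DKK1 libraries. The groups did not overlap, and replicate 1 was the lowest of each. The pairs gave 2.43, 1.99 and 2.07-fold. The log2 fold change of 1.07 (SE 0.21) missed the threshold in the unpaired fit (edgeR adjusted p = 0.0730) and passed in the paired fit (1.08, SE 0.05, edgeR adjusted p = 2.36e-08). The other genes of that group were scarce: Itih2, a heavy chain gene, and Itih5, a relative of the heavy chain genes, were not called, and Ambp, which encodes the light chain, had at most 1 count in any library. Itih1, Itih3 and Itih4 had at most 19 counts and were not tested.

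Of the 8 genes that supply the sugar precursors, all were tested, 0 were called unpaired and 2 with the block, beside 9.42% of all tested genes. Gfpt2, 1 of the pair of paralogs for the first step toward UDP-N-acetylglucosamine, had 94.3, 115 and 96.0 CPM in control and 126, 143 and 110 CPM with DKK1. The groups overlapped, but the pairs gave 1.33, 1.24 and 1.15-fold, and Gfpt2 was higher in the paired fit (log2 fold change 0.31, SE 0.04, edgeR adjusted p = 7.40e-05; unpaired adjusted p = 0.322). Its paralog Gfpt1 had 126 ± 3.11 and 126 ± 3.87 CPM (SD, n = 3 each). Ugdh, which makes UDP-glucuronic acid, had 341 ± 13.6 and 352 ± 11.3 CPM, a fold change of 1.03 (95% interval 0.969 to 1.09, edgeR adjusted p = 0.779). Uap1l1, a paralog of the UDP-N-acetylglucosamine pyrophosphorylase gene Uap1, was lower in the paired fit (-0.17, SE 0.04, edgeR adjusted p = 0.0293), and was not called with the block in DESeq2 (adjusted p = 0.590).

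Versican-cleaving proteases went in both directions in the paired fit, where 4 of 5 tested were called, 2 higher and 2 lower, beside 9.42% of all tested genes, against 0 unpaired. The block in DESeq2 called none of them (adjusted p = 0.327 for Adamts15 and 0.541 for Adamts4). Adamts15 had 7.27, 7.53 and 4.33 CPM in control and 11.8, 10.9 and 4.64 CPM with DKK1. Both replicates 3 were low, the groups overlapped, and the fold was 1.63, 1.45 and 1.07 in the pairs (paired log2 fold change 0.50, SE 0.11, edgeR adjusted p = 0.0111; unpaired 0.52, adjusted p = 0.666). Adamts4 was higher by 0.16 (SE 0.04, edgeR adjusted p = 0.0243 with the block and 0.434 without). Its group means were 49.7 ± 2.89 and 55.5 ± 4.08 CPM. The 2 called lower were Adamts1 and Adamts5, named to complete the count.

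Among other receptors and binding proteins 8 of 12 were tested, and with the block 1 was called higher (Hmmr, also named to complete the count) and 1 lower, beside 9.42% of all tested genes. Hmmr was not called with the block after GC and length trends were removed, at equal depth, or in DESeq2. Stab1, a scavenger receptor for hyaluronan on macrophages and sinusoidal endothelium, had 12.7, 8.88 and 17.4 CPM in control and 7.89, 5.36 and 12.7 CPM with DKK1. It was lower in each pair, at 0.620, 0.603 and 0.729 of the control, and in the paired fit (log2 fold change -0.62, SE 0.09, edgeR adjusted p = 3.50e-04; unpaired adjusted p = 0.580). Macrophage markers varied in the same libraries. Both replicates 3 were the highest of their group for Stab1 and for Lyz2 (696 and 722 CPM against 340 to 412 in the other libraries). The macrophage markers called in the paired fit are those given above, and Ptprc, Cd68 and Lyz2 were not called; their part in the Stab1 difference was not tested. The summed leukocyte markers had 404, 466 and 804 CPM in control replicates 1, 2 and 3 and 455, 495 and 852 CPM in the DKK1 replicates. The groups overlapped, and the sum, most of it Lyz2, was higher with DKK1 in each pair. Single leukocyte markers went in both directions. Csf1r was lower in each pair, as Stab1 was (unpaired log2 fold change -0.28, edgeR adjusted p = 0.0364 with the block and 0.756 without). Cd14, Adgre1, Itgam and Lyz2 were higher in each pair, and Ptprc and Cd68 differed in direction between pairs. Of the CD44 linkers to actin (Ezr, Rdx and Msn), Ezr was called lower with the block (-0.18, SE 0.05, edgeR adjusted p = 0.0242), but not unpaired (adjusted p = 0.830) or with the block in DESeq2 (adjusted p = 0.356). Of the other breakdown genes, 4 of 9 were tested, and Hexa, a lysosomal exoglycosidase subunit, was lower with the block (-0.15, SE 0.03, edgeR adjusted p = 0.00526; 93.0 ± 3.32 and 84.2 ± 2.68 CPM), but not called unpaired (adjusted p = 0.191) or with the block in DESeq2 (adjusted p = 0.176). Hyal4, Hyal5, Hyal6 and Spam1 had at most 1 count in any library, and Hyal3 at most 8.

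**Figure D4:**
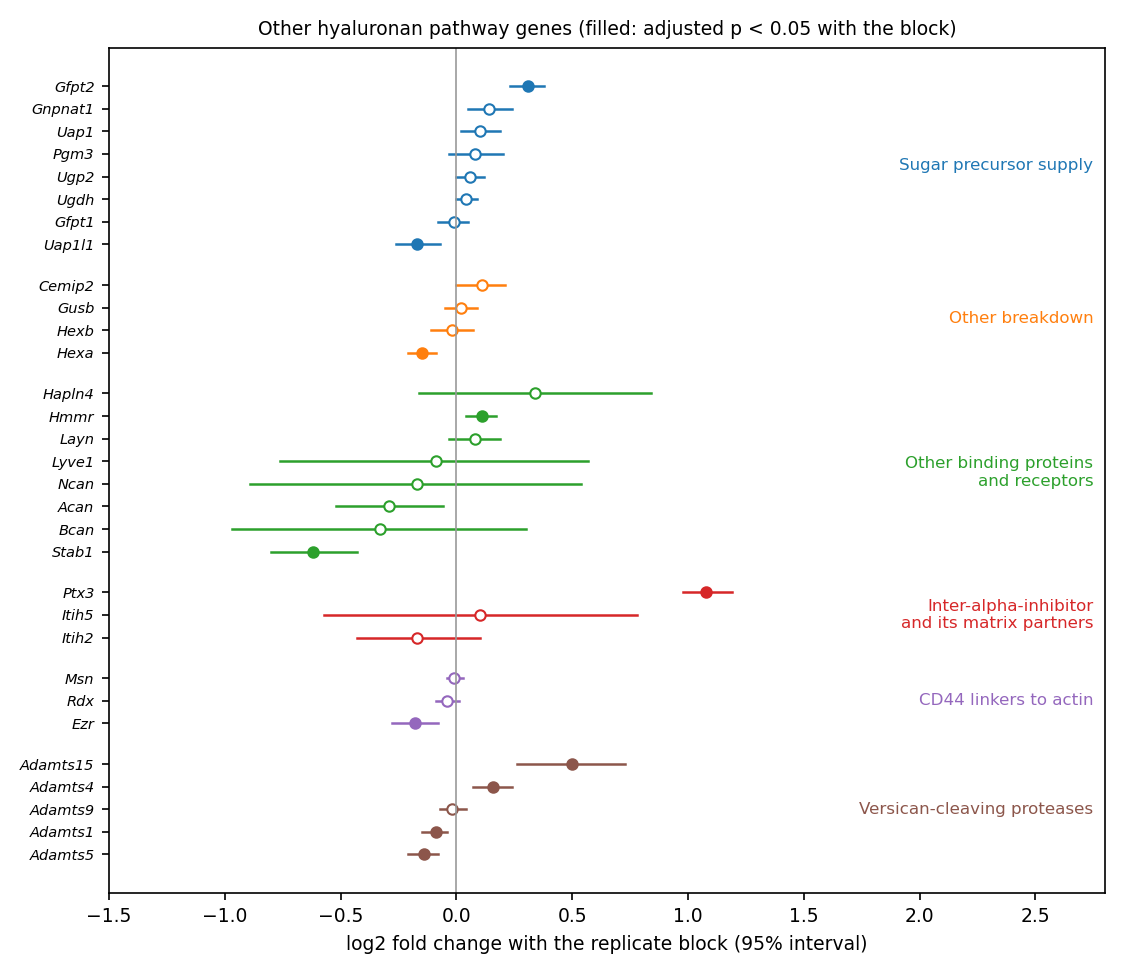
log2 fold change with the replicate block, with 95% intervals, of the 31 tested pathway genes outside the 10, ordered by role; filled points have an adjusted p under 0.05 with the block. Ptx3 lies far to the right of the other genes, and Stab1 is the lowest.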

How the data were processed

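The deposited table holds RSEM expected counts per gene for 6 samples, 1 column each, matched by the sample descriptions. The submitters' processing notes name STAR, RSEM, edgeR 4.2.1 and the builds GRCm38 and mm10; annotation release and strandedness are not given in the sources used here. Between 9.62% and 10.6% of the deposited values were not whole (tolerance 0.001 counts). Symbols were found for 98.8% of the identifiers; positions and lengths came from GENCODE M21 (GRCm38), which holds 98.7% of the table's transcripts.

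Expected counts were rounded, then tested with edgeR 4.0.16 under R 4.3.3 (filterByExpr, minimum count 10; TMM; quasi-likelihood, two-sided; Benjamini-Hochberg over all tested genes), the group being the only term. SE is the absolute log2 fold change over the square root of F. CPM uses the whole library total. Same-numbered samples deviated together from their group means (correlations across genes 0.274, 0.23 and 0.405, and -0.283 to 0.0751 for crossed numbers). The numbers of the sample titles were therefore taken to pair them, and a fit with the replicate block is given where it changes a call. Deviations from a group mean cancel over the group, so low crossed values are partly built in. No label says that same-numbered samples are pairs. The pipeline was tested on simulated data. Libraries of the same group differed by more than sampling noise (chi-square 5.19 to 8.14 per degree of freedom over the 6 pairs within groups).

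The members and lists were chosen with earlier results of these data known. Named were all members, up to 4 other pathway genes a direction by fold among those called, and the 5 genes most correlated with the member of smallest p. Alternatives were other scalings, filters, DESeq2 1.42.0, limma-voom (limma 3.58.1), unrounded or thinned counts, the block, removal of GC and length trends, and leaving out samples; leaving out replicate 3 of both groups was added after seeing the data.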

Additional observations from a re-analysis of the deposited data

How the results depend on the processing

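Calls over all genes, 131 unpaired (102 higher, 29 lower), were 329 without a low-count filter, 289 in DESeq2, 1379 with the replicate block (726 higher, 653 lower), 551 with the block in DESeq2, 1345 with the block after removing GC and length trends, and 1273 with the block at equal depth. Leaving out 1 sample gave 36 to 139, and leaving out replicate 3 of both groups gave 149 (chosen after seeing the data). Member calls, 2 unpaired, were 1 with library totals, 4 in each of the 3 edgeR fits with the replicate block, 3 with the block in DESeq2 (Cemip, Has2 and Vcan), and 0 to 2 when 1 sample was left out, where fewer samples are tested. Calls among the other pathway genes, 0 unpaired, were 1 without a low-count filter, 1 in DESeq2, 11 with the block, 3 with the block in DESeq2, 10 with the block after removing GC and length trends, 10 with the block at equal depth, and 0 in the fits that left out 1 sample. The cause was not tested for the other settings. Across the fits that left out samples, the log2 fold change ranged from -0.50 to 0.08 for Has3 and from -0.22 to 0.09 for Hyal1, with 0.05 without control replicate 1, 0.08 without DKK1 replicate 3 and 0.09 without replicate 3 of both groups; of the 22 genes refitted under each alternative, no other changed sign. Has2 was called in 12 and Vcan in 13 of the 13 alternatives that kept all samples (log2 fold changes 0.49 to 0.52 and 0.46 to 0.50). The depth limits Has1, Has3 and Hapln3, with at most 77 counts in a library.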
